A study of Mus musculus with 7 samples.

Results

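The proteasome subunits were taken as every gene of the deposited table whose symbol is Psma, Psmb, Psmc, Psmd or Psme followed by a number. This gave 43 genes of 35641, of which 42 reached the mean of 10 normalized counts needed for a test. RNA was sequenced in 4 HF and 3 LF libraries of cells sorted from lungs of C57BL6 females, and the design text counts 4 HF and 3 LF mice. The labels call the cells neutrophils, sorted as CD45+ CD11b+ Ly6Clo Ly6G+, and neither the group names nor the ages of the mice are spelled out there. The study's title names neutrophil oxidative stress in obesity, and HF against LF was the comparison its design allows. No genotype, transgene or drug is named for either group. The labels give both groups the same sex, strain, tissue and sort, but marker genes below went against that sort in the LF libraries.

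The proteasome is the protease that degrades ubiquitin-tagged and oxidized proteins in the cytosol and nucleus. Its 20S core is a barrel of alpha and beta rings whose proteolytic sites lie on the beta1, beta2 and beta5 subunits, and caps such as the 19S particle, PA28 or PA200 open the barrel. In immune cells and under interferon, the catalytic subunits Psmb6 (beta1), Psmb7 (beta2) and Psmb5 (beta5) can be replaced by Psmb9 (beta1i), Psmb10 (beta2i) and Psmb8 (beta5i), which gives the immunoproteasome, known for making peptides for MHC class I.

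Reads assigned to genes, recovered from the normalized counts, ranged from 13943173 to 16599658 in HF and from 16974428 to 18983351 in the LF-labelled libraries. The LF libraries (columns LF6, LF7 and LF8) went against the Ly6G+ sort and are called the LF-labelled libraries here. Ly6g, the gene of the sorted surface protein, stood at 0.749, 0 and 8.22 normalized counts there, and at 1301 to 4944 in HF. Of 14 neutrophil markers 13 were higher in HF and 0 lower, with sums of 445186 to 601661 in HF and 13020 to 14400 in the LF-labelled libraries. Of 15 monocyte and macrophage markers 0 were higher and 11 lower, with sums of 33004 to 43950 in HF and 141380 to 148388 in the LF-labelled libraries. Of the latter list, Ms4a7, C1qa and Fcgr1 were among those at 0 in at least 1 HF library. C1qa also reached 787 in HF3, against 121 to 547 in the LF-labelled libraries. It was among the 4 of this list that did not pass, as was Adgre1 (means of 5000 in HF and 4917 in the LF-labelled libraries). Csf1r was lower in HF but still stood at 12813 to 15633 there, against 32838 to 34243. Of 10 dendritic and class II markers 7 were lower and 0 higher (sums of 12508 to 30667 in HF against 71102 to 86793). In the order given, the shares called were 92.9% higher, 73.3% lower and 70.0% lower. Of all tested genes, 26.2% were called higher and 28.7% lower. Most of these markers thus differed between the same 2 groups that are compared below, and their part in the subunit results was not tested. Bulk RNA cannot separate fewer cells of a type from less RNA per cell.

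Most proteasome subunits were lower in HF than in the LF-labelled libraries, and the inducible beta1i subunit Psmb9 was the clearest exception. Differences were taken on log2(normalized count + 1) and tested with limma over 14936 genes. Of the 42 tested subunits, 32 were lower in HF at a limma adjusted p under 0.05, 2 were higher and 8 did not pass. Of all tested genes, 28.7% were called lower and 26.2% higher (55.0% in either direction), so 76.2% of the tested subunits lay on the lower side against 28.7% of all genes, and 4.76% on the higher side against 26.2%. The median log2 difference was -0.67 over the subunits and -0.16 over all tested genes. Summed over all subunits, the level was 50359 to 55398 normalized counts in the HF libraries and 79427 to 81596 in the LF-labelled libraries.

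The groups did not overlap for 37 of the 42 tested subunits, 34 lower and 3 higher in HF. Over all tested genes, groups did not overlap for 62.2%, with 33.7% lower and 28.4% higher. One subunit, Psma8, passed the filter only through the LF-labelled libraries, and without it 31 of 41 were lower with a median of -0.64. The median SD of the log2 values was 0.18 in HF and 0.053 in the LF-labelled libraries for the subunits, against 0.50 and 0.16 for all tested genes. Within HF no single library set the pattern. HF1 was the highest HF library for 17 subunits and the lowest for 9, and HF2 was the lowest for 16.

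**Figure D1:**
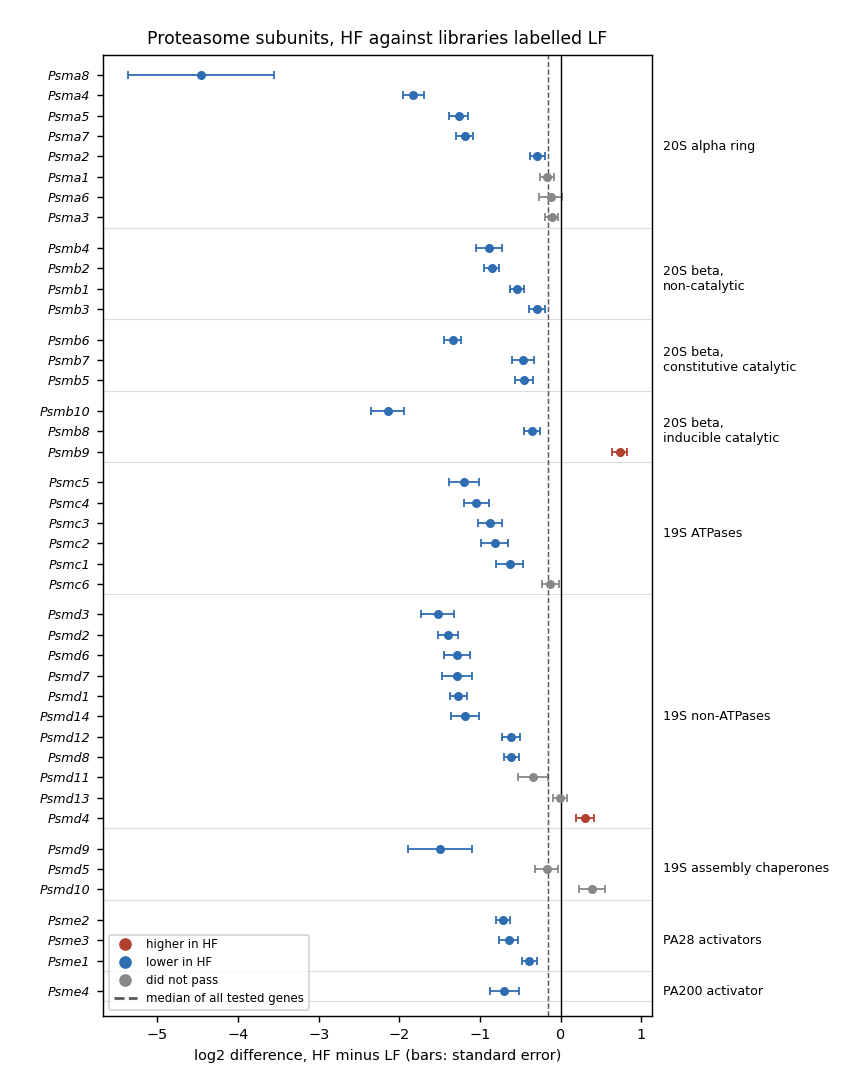
Log2 difference of each tested subunit between HF and the LF-labelled libraries (x axis, log2 units, with standard errors), grouped by role, with the median of all tested genes as a dashed line. Of the 42 points 32 are called lower and 2 higher; of the points right of 0, Psmd4 and Psmd10 turn negative when library totals are made equal, and Psmb9 does not.

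The inducible catalytic subunits went in different directions. Psmb9 (ENSMUSG00000096727) stood at 3690.1, 3243.8, 3687.7 and 3192.9 normalized counts in HF1 to HF4 and at 2085, 1950.3 and 2198 in LF6 to LF8. Every HF library lay above every LF-labelled library, and the difference was 0.73 ± 0.09 (SE) on the log2 scale, a 1.66-fold higher mean (limma adjusted p = 0.000268, with 2.13e-13 to 0.0885 across alternatives). The upper end of that range came from equal library totals, where the difference was 0.21 and the call was lost. Psmb10 (ENSMUSG00000031897) stood at 618, 449.99, 329 and 505 in HF and at 2103, 1980.3 and 2084 in the LF-labelled libraries. The groups lay far apart, with a difference of -2.15 ± 0.20 and a 4.32-fold lower mean in HF (limma adjusted p = 5.9e-05), and HF3 was the lowest library. Psmb8 (ENSMUSG00000024338), which had the highest mean count of all subunits before any correction for length, stood at 3533, 2746, 3222 and 2949 in HF and at 4101, 3958 and 3865 in the LF-labelled libraries. The groups did not overlap, yet the difference of -0.36 ± 0.10 was small (limma adjusted p = 0.0148), and it no longer passed without LF6 (0.0627) or without LF7 (0.0505), in a range of 3.58e-05 to 0.0627 across alternatives. The thymus-specific subunit Psmb11 was at 3 reads in HF and 1 read in the LF-labelled libraries and was not tested.

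The constitutive catalytic subunits were all lower in HF (100%, against 28.7% of all genes). Psmb6, the beta1 subunit that Psmb9 replaces, stood at 816, 777, 767 and 918 in HF and at 2017, 2000.6 and 2186 in the LF-labelled libraries. Its difference of -1.34 ± 0.11 (limma adjusted p = 2.1e-05) was the largest of the 3, a 2.52-fold lower mean. Psmb5, the beta5 subunit, stood at 1013, 822, 971 and 979 in HF and at 1280.4, 1314 and 1286 in the LF-labelled libraries, a difference of -0.46 ± 0.11 (limma adjusted p = 0.00865). Psmb7, the beta2 subunit, stood at 459, 567, 489 and 581 in HF and at 754, 708 and 703 in the LF-labelled libraries. The groups were apart, but the Psmb7 difference of -0.47 ± 0.14 (limma adjusted p = 0.0203, with 0.000392 to 0.14 across alternatives) did not pass without LF6, without LF7 or without LF8, after quantile normalization or with no filter on low values.

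**Figure D2:**
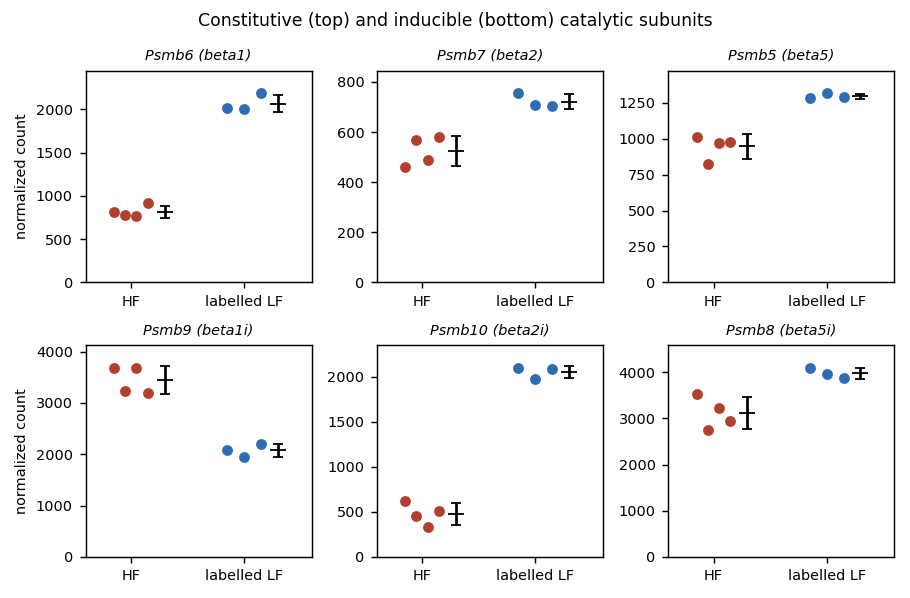
Normalized counts (y axes, from 0) of the constitutive (top row) and inducible (bottom row) catalytic subunits in each of the 4 HF and 3 LF-labelled libraries, with mean and SD as black marks. Psmb9 is the only one of the 6 with all HF libraries above the others, and Psmb10 and Psmb6 show the widest gaps the other way.

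The ratio of each inducible subunit to the subunit it replaces does not change when a library is scaled by 1 factor. At the beta1 position the log2 ratio Psmb9/Psmb6 was 2.18, 2.06, 2.26 and 1.80 in HF1 to HF4 and 0.05, -0.04 and 0.01 in LF6 to LF8. Without correction for length, the count of Psmb9 was 3.48 to 4.81 times that of Psmb6 in HF and 0.975 to 1.03 times in the LF-labelled libraries. The difference of 2.07 ± 0.10 (SE), 4.19-fold, gave an exact two-sided permutation p of 0.0286, the smallest that 35 splits of 7 libraries allow, and 0.0429 adjusted over the 3 ratios. At the beta2 position the order was the reverse. The log2 ratio Psmb10/Psmb7 was 0.43, -0.33, -0.57 and -0.20 in HF and 1.48, 1.48 and 1.57 in the LF-labelled libraries, so every HF library was below every other. The difference was -1.68 ± 0.22, 3.20-fold lower in HF (exact permutation p = 0.0286, adjusted 0.0429). At the beta5 position the log2 ratio Psmb8/Psmb5 was 1.80, 1.74, 1.73 and 1.59 in HF and 1.68, 1.59 and 1.59 in the LF-labelled libraries. These groups overlapped and differed by 0.10 ± 0.05 (exact permutation p = 0.143), and quantile normalization, which reshapes each library, turned this difference to -0.46 (exact permutation p = 0.0286).

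**Figure D3:**
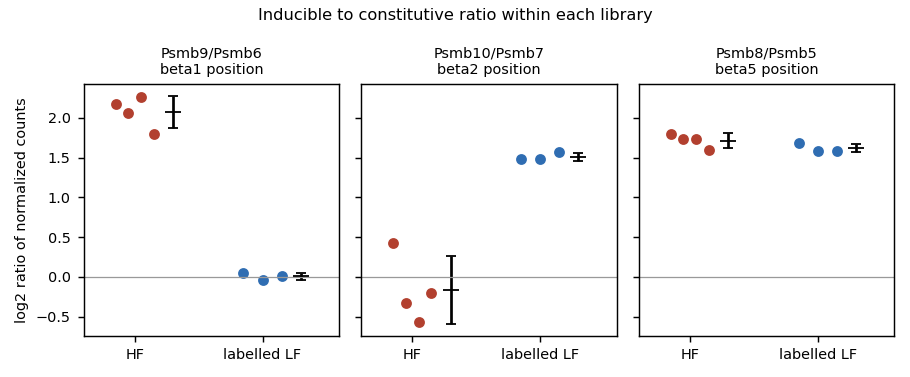
Log2 ratio of inducible to constitutive catalytic subunit within each library at the beta1, beta2 and beta5 positions (y axis, log2 of normalized counts), with mean and SD beside the points. HF is higher at beta1 by 2.07, lower at beta2 by 1.68, and overlaps the LF-labelled libraries at beta5.

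Per kilobase of exon, which allows levels of different genes to be compared, Psmb9 averaged 944 and Psmb6 438 normalized counts in HF, against 568 and 1105 in the LF-labelled libraries. Psmb9 then made up 68.3% ± 3.09 (SD, n = 4) of the beta1 pair in HF and 33.9% ± 0.658 (SD, n = 3) in the LF-labelled libraries. Psmb10 made up 63.9% ± 6.6 of the beta2 pair in HF and 85.1% ± 0.436 in the LF-labelled libraries, while Psmb8 made up 46.6% ± 1.53 and 45.0% ± 0.893 of the beta5 pair. With the longest coding transcript of each gene in place of all exons, a choice added after the data were seen, the shares were 71.3% and 37.2% for Psmb9, 44.1% and 71.6% for Psmb10, and 64.5% and 62.9% for Psmb8. The direction between groups was the same under both lengths, but the level of each share moved with the length. Among the inducible subunits alone, the ratio of Psmb9 to Psmb10 in normalized counts, not corrected for length, was 5.97 to 11.2 in HF and 0.985 to 1.05 in the LF-labelled libraries, given as a description.

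Psmb9 and Psmb8 lie next to the peptide transporter genes on chromosome 17 in the RefSeq annotation (GRCm38.p6), in the order Psmb9, Tap1, Psmb8, Tap2, while Psmb10 lies on chromosome 8. The promoter windows of Psmb9 and Tap1, each 250 bases before to 50 after the RefSeq start, share 275 bases on opposite strands. Tap1 averaged 4380 ± 599 in HF and 3523 ± 462 in the LF-labelled libraries and did not pass (0.31 on the log2 scale, limma adjusted p = 0.0803), with -0.21 under equal library totals and -0.31 after quantile normalization. Tap2 was higher in HF by 0.98 (limma adjusted p = 0.00027). Both Tap genes were picked after their values were seen. The calls along this stretch of chromosome 17 thus went in both directions, with Psmb9 and Tap2 higher and Psmb8 lower.

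Promoter windows were matched by symbol for 36 of the 43 subunits, and 7 had none. They were searched on both strands for the interferon-stimulated response element core (GAAA, any 2 bases, GAAA), TGACNNNGC (the antioxidant response element core, bound by Nfe2l1 and Nfe2l2), CCAAT (the NF-Y box) and TTCNNNGAA (the gamma-activated site core, added after the data were seen). Factors that bind such motifs are known regulators of subunit genes. To show where the matches lie in the catalytic subunits and in 2 subunits with the interferon-type motif, stretches of 30 bases from the RefSeq windows follow, 5′ to 3′ on the strand of the gene, with the match in capitals, including matches to the reverse complement of a motif.
Psmb9 (chr17:34187321-34187350, minus strand, CCAAT): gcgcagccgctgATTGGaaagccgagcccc
Psmb8 (chr17:34198088-34198117, plus strand, TTCNNNGAA): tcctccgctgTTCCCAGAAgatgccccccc
Psmb6 (chr11:70525338-70525367, plus strand, TGACNNNGC): ctaaagagagTGACGGAGCgctttacgacg
Psmb5 (chr14:54618023-54618052, minus strand, TGACNNNGC): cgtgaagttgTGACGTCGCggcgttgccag
Psme1 (chr14:55578493-55578522, plus strand, interferon-stimulated element core): cgagctgtgcTTTCGCTTTCccttcccgct
Psmd4 (chr3:95042675-95042704, minus strand, interferon-stimulated element core): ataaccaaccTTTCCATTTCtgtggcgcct

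The interferon-stimulated response element core was found in 4 of the 36 subunits and in 3.44% of all 32851 RefSeq windows. The 4 were Psmd4, Psmd9, Psmb3 and Psme1, and no inducible catalytic subunit held it in its window. TGACNNNGC was found in 6 subunits and 12.4% of all windows, and these 6 held the constitutive subunits Psmb5, at 47 bases before the start, and Psmb6, at 9 before. CCAAT was found in 14 subunits, Psmb9 among them, and 37.4% of all windows. TTCNNNGAA was found in Psmb8 and Psmd2 and in 8.3% of all windows. No motif of the 4 was in the Psmb10 window. These are matches of letters near RefSeq starts only, and GENCODE lists further starts for all 3 inducible genes.

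Of the 8 alpha subunits, which form the outer rings and the gate of the core, 5 were lower in HF, 0 were higher and 3 did not pass (median -0.74). Thus 62.5% were lower, against 28.7% of all genes. Psma4 stood at 531, 729, 626 and 584 in HF and at 2189, 2133 and 2208 in the LF-labelled libraries. The groups were widely apart, with a difference of -1.83 ± 0.13 and a 3.53-fold lower mean in HF (limma adjusted p = 1e-05), the largest fall of any core subunit outside the catalytic ones and Psma8. Psma8, the alpha subunit known from the testis proteasome, came to 5 reads over the HF libraries and 186 over the LF-labelled libraries. The HF reads were 1, 4, 0 and 0 and the others 46, 38 and 102, so its log2 difference of -4.46 ± 0.90 depends on the pseudocount. The 3 that did not pass were among the more abundant subunits. Psma1 stood at 3284, 2697, 3087 and 2999 in HF and at 3522, 3345 and 3314 in the LF-labelled libraries (-0.17, limma adjusted p = 0.121). Psma3 stood at 2725, 2649, 2462 and 2775 in HF and at 2978, 2844 and 2780.2 in the LF-labelled libraries (-0.11, limma adjusted p = 0.244). For both of these every HF library was below every other, by a narrow gap. Psma6 stood at 2415, 1551, 1964 and 2077 in HF and at 2105, 2164 and 2200.1 in the LF-labelled libraries, and its groups overlapped (-0.12, limma adjusted p = 0.486). All 3 passed as lower after equal library totals or quantile normalization. Members of 1 ring, which the complex holds in equal number, thus ranged from -0.11 to -1.83 without Psma8.

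The 4 non-catalytic beta subunits Psmb1, Psmb2, Psmb3 and Psmb4 were all lower in HF (100%, against 28.7% of all genes). Their differences ran from -0.89 to -0.30, with a median of -0.70. Their summed level was 5442 to 5939 in HF and 8594 to 8957 in the LF-labelled libraries.

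In the 19S cap, 5 of the 6 ATPases that unfold and thread substrates were lower in HF (83.3%, against 28.7% of all genes). Their median was -0.85, with sums of 4238 to 5306 in HF against 8110.5 to 8517. Psmc6 was the exception. It stood at 1023, 1111, 939.6 and 1143 in HF and at 1103, 1170 and 1175 in the LF-labelled libraries, with overlapping groups (-0.13, limma adjusted p = 0.345). Of the 11 non-ATPase subunits, which bind and deubiquitinate substrates and hold the cap together, 8 were lower, 1 was higher and 2 did not pass. Their median was -1.19, with 72.7% lower and 9.09% higher, against 28.7% and 26.2% of all genes. Psmd3, a scaffold subunit of the lid, stood at 431, 504, 298 and 517 in HF and at 1173, 1179 and 1353 in the LF-labelled libraries. All HF values were below all others, and the difference was -1.52 ± 0.21, 2.82-fold (limma adjusted p = 0.000434).

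Psmd4, a ubiquitin receptor of the cap, was the other subunit taken by symbol that was called higher in HF. It stood at 2407, 2040.4, 1834 and 2086 in HF and at 1627, 1658 and 1797 in the LF-labelled libraries. The gap between the lowest HF library and the highest other was narrow, and the difference was 0.30 ± 0.11 (limma adjusted p = 0.0482, with 0.0205 to 0.746 across alternatives). It did not pass without HF1, HF2, HF4, LF6, LF7 or LF8, after quantile normalization, with no filter or in either edgeR fit, and under equal library totals it turned to -0.22. Psmd11, a lid subunit, stood at 1002, 955, 709 and 1282 in HF and at 1157, 1256 and 1269 in the LF-labelled libraries. Its groups overlapped through HF4 (-0.34, limma adjusted p = 0.156), and without HF4 it passed as lower (-0.48, limma adjusted p = 0.0361, with 0.00381 to 0.305 across alternatives). Psmd13, another lid subunit, was level, with 1434, 1449, 1367 and 1514 in HF and 1463, 1453 and 1437 in the LF-labelled libraries. Its difference of -0.01 ± 0.09 (limma adjusted p = 0.925) took the other sign without HF3 and in DESeq2, and became -0.53 under equal library totals.

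The 3 Psmd genes that encode chaperones of cap assembly rather than subunits of the finished cap did not move together. Psmd9 stood at 202, 105, 65.0 and 183 in HF and at 354, 378 and 342 in the LF-labelled libraries. It was lower by 1.49 on the log2 scale in HF (SE 0.40, limma adjusted p = 0.0131), with the widest spread within HF among tested subunits after Psma8, and did not pass after quantile normalization (limma adjusted p = 0.061, with 0.00264 to 0.061 across alternatives). Psmd10, also known as gankyrin, stood at 621, 751, 684 and 917 in HF and at 576, 519 and 590.4 in the LF-labelled libraries. Every HF library was above every other, but the difference of 0.39 ± 0.16 did not pass (limma adjusted p = 0.0691, with 0.00962 to 0.479 across alternatives), passed without HF1 (0.0352), and was -0.13 under equal library totals. Psmd5 stood at 877, 818, 665 and 844 in HF and at 842, 851 and 1017 in the LF-labelled libraries, with overlapping groups (-0.18, limma adjusted p = 0.319).

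All 4 activator genes were lower in HF, against 28.7% of all genes. Psme1 and Psme2 encode the interferon-inducible PA28 alpha and beta subunits. Psme1 stood at 2344, 2184, 2759 and 2404 in HF and at 3160, 3153 and 3193 in the LF-labelled libraries (-0.39 ± 0.09, limma adjusted p = 0.00819). Psme2 stood at 1884, 2006, 2088 and 2196 in HF and at 3373, 3366 and 3317 in the LF-labelled libraries (-0.72 ± 0.08, limma adjusted p = 0.000154). Psme2 has a near-identical copy, Psme2b, which averaged 804 in HF and 739 elsewhere without passing (limma adjusted p = 0.389), so how reads were split between the copies is uncertain. Psme3, which forms the nuclear PA28 gamma ring, stood at 1523, 1216, 1192 and 1477 in HF and at 2010.2, 2152 and 2143 in the LF-labelled libraries (-0.64 ± 0.12, limma adjusted p = 0.00221). Psme4, which encodes PA200, stood at 979.9, 669, 905 and 1133 in HF and at 1551, 1329 and 1539.8 in the LF-labelled libraries (-0.70 ± 0.18, limma adjusted p = 0.012). None of the 4 genes had overlapping groups, which also held for 62.2% of all tested genes (33.7% lower and 28.4% higher in HF).

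The direction of a subunit near 0 depended on how the libraries were put on 1 scale. Setting all library totals equal moved the median of all tested genes by -0.51, to -0.67. On that scale 39 subunits were lower and 0 higher, with a median of -1.19, against 42.1% of all genes lower and 18.1% higher (60.2% in either direction). After quantile normalization the median of all genes moved by 0.08, to -0.08, and 33 subunits were lower and 2 higher (Psmb9 and Psmd10), with a median of -0.93, against 26.8% and 26.6% of all genes (53.4% in either direction). The share of calls that were higher was 5.88% for the subunits and 47.7% for all genes on the deposited scale. It was 0% and 30% with equal totals, and 5.71% and 49.8% after quantile normalization. Psmb9 lay above the median of all genes on each scale, at 0.73, 0.21 and 0.32 against medians of -0.16, -0.67 and -0.08. In the authors' deposited table the log2 fold change was 0.73 for Psmb9 (adjusted p = 6.68e-11), -2.11 for Psmb10 (adjusted p = 2.67e-21) and 0.30 for Psmd4 (adjusted p = 0.0423).

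**Figure D4:**
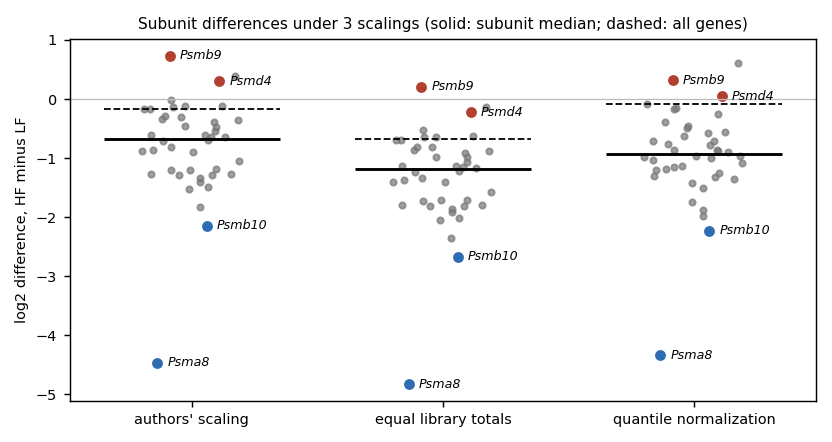
Log2 difference of each tested subunit (points; y axis in log2 units) under the authors' scaling, equal library totals and quantile normalization, with subunit medians as solid and all-gene medians as dashed lines. The subunit median lies below the all-gene median on each scale (-0.67, -1.19 and -0.93), Psmb9 stays above 0 throughout, and Psmd4 is below 0 with equal totals.

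The other genes of the pathway did not follow the subunits as a body. Of 61 genes listed for assembly, transcription, ubiquitin supply and class I peptide handling, 59 were tested, and Paaf1 and Ddi1 were not analysed here. In HF 17 rose, 26 fell and 16 missed the threshold, so 28.8% were higher and 44.1% lower against 26.2% and 28.7% of all genes. The share of their calls that were higher, 39.5%, became 24.5% when totals were made equal and 27.5% after quantile normalization. For all genes this share was 47.7%, 30% and 49.8% on these scales. With equal totals 18.1% of all genes were higher and 42.1% lower, and after quantile normalization 26.6% and 26.8%.

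Of 16 assembly and accessory genes 9 were lower and 3 higher in HF (56.2% and 18.8%, against 28.7% and 26.2% of all genes). The counts were 12 lower and 2 higher under equal totals and 7 and 1 after quantile normalization. Pomp, the chaperone that completes the core and is known for immunoproteasome assembly, stood at 987, 1012, 987 and 1094 in HF and at 3315, 3088 and 3266 in the LF-labelled libraries. All HF libraries lay within a narrow band far under the others (-1.66 ± 0.09, limma adjusted p = 1.99e-06). Psmg4, a subunit of the chaperone pair that builds the alpha ring, was lower by 2.67 on the log2 scale (SE 0.42, limma adjusted p = 0.000996). Of the deubiquitinases of the cap, Uchl5 averaged 1331 ± 186 in HF and 544 ± 34.0 in the LF-labelled libraries and was higher (1.28, limma adjusted p = 0.000114), while Usp14, named after its values were seen, averaged 272 ± 126 and 979 ± 107 and was lower (-1.94, limma adjusted p = 0.00132). Zfand5, a stimulator of the 26S proteasome and the list's highest gene by count, averaged 8821 ± 772 in HF and 5177 ± 226 in the LF-labelled libraries (0.77, limma adjusted p = 0.000111), but stood at -0.06 after quantile normalization.

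Of 14 genes for transcription of subunits 8 were higher in HF and 3 lower (57.1% and 21.4%, against 26.2% and 28.7% of all genes), with a median of 0.49. With equal library totals 5 were higher and 5 lower with a median of -0.03, and after quantile normalization 6 were higher and 2 lower. Irf1, the interferon-induced factor that activates the inducible subunit genes, averaged 11908 ± 962 in HF and 3900.2 ± 331 in the LF-labelled libraries (1.61, limma adjusted p = 2.56e-06). Ngly1, the glycanase that processes Nfe2l1 on its way to the nucleus, averaged 4594 ± 651 and 1225 ± 108 (1.90, limma adjusted p = 6.63e-06). Nlrc5, the class I transactivator, went the other way, with 1244 ± 261 in HF and 2146 ± 160 in the LF-labelled libraries (-0.81, limma adjusted p = 0.00377). Maf, a basic leucine zipper factor, was lower by 1.81 on the log2 scale (limma adjusted p = 0.0169), and did not pass without LF6 (0.0646), without LF8 (0.0624) or after quantile normalization (0.0674), in a range of 0.00546 to 0.0674 across alternatives. Nfe2l1, the factor that restores subunit transcription when proteasomes fail, did not pass (924 ± 318 and 1128 ± 103, -0.34, limma adjusted p = 0.254). Its relative Nfe2l2, the factor of the oxidative stress response, was higher at 8298 ± 1165 in HF and 4859 ± 182 in the LF-labelled libraries (0.76, limma adjusted p = 0.000754), but stood at -0.04 after quantile normalization. Both Nfe2l genes were named after their values were seen.

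Of 14 genes for ubiquitin supply and shuttling 2 were higher in HF and 6 lower (14.3% and 42.9%, against 26.2% and 28.7% of all genes). The counts were 2 higher and 9 lower under equal totals and 2 and 8 after quantile normalization. Ubb, a stress-inducible polyubiquitin gene and the list's highest by count, stood at 21066, 20511, 21192 and 21310.0 in HF and at 7158, 7021 and 7516 in the LF-labelled libraries (1.54 ± 0.05, limma adjusted p = 1.63e-07), with the groups widely apart. It was higher under all 3 scalings. The shuttle receptor Rad23b, which carries ubiquitinated proteins to the cap, was lower by 1.46 on the log2 scale (limma adjusted p = 0.000395).

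Of 15 genes of class I peptide supply 4 were higher in HF and 8 lower (26.7% and 53.3%, against 26.2% and 28.7% of all genes), with 3 and 11 under equal totals and 2 and 12 after quantile normalization. B2m, the class I light chain, named after its values were seen, averaged 26413 ± 1502 in HF and 20385 ± 951 in the LF-labelled libraries (0.37, limma adjusted p = 0.00102), but was called lower with equal totals (-0.15) and after quantile normalization (-0.64). H2-D1, a class I heavy chain, averaged 84325 ± 3093 in HF and 45183 ± 971 in the LF-labelled libraries (0.90, limma adjusted p = 8.45e-07), but was called lower after quantile normalization (-0.20). Npepps, a cytosolic aminopeptidase, averaged 1364 ± 250 and 491 ± 64.0 (1.46, limma adjusted p = 0.000225). The endoplasmic reticulum chaperones of class I folding were lower, Pdia3 by 1.52 and Canx by 1.54 on the log2 scale (limma adjusted p = 5.07e-06 and 4.17e-05).

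**Figure D5:**
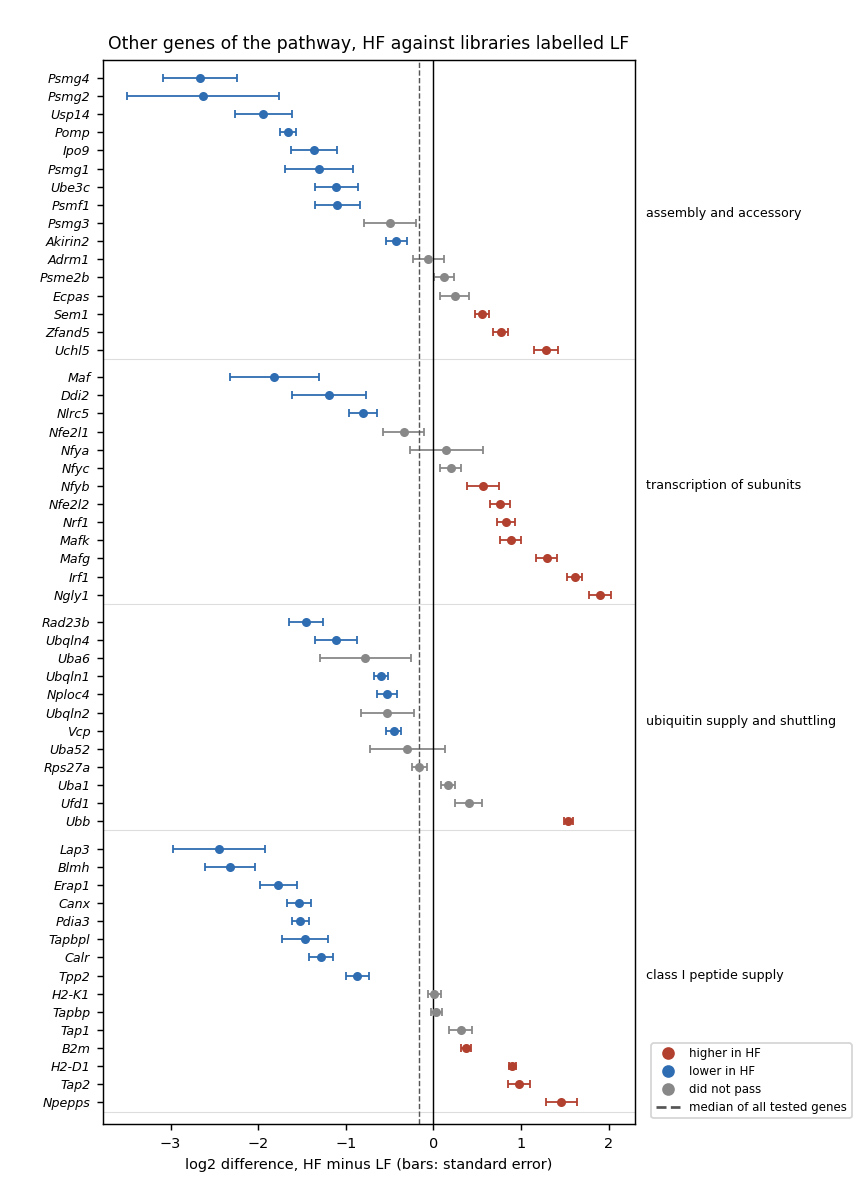
Log2 difference of 56 of the 59 tested pathway genes between HF and the LF-labelled libraries (x axis, log2 units, with standard errors), in 4 lists, with the median of all tested genes as a dashed line. Calls in both directions occur in each list, with 15 higher and 25 lower among those drawn. Of the points right of 0, B2m, Tap1, H2-D1, Zfand5 and Nfe2l2 are among those below 0 after quantile normalization, B2m and Tap1 also with equal library totals.

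Interferon response genes, which share regulators with the inducible subunits, were also split. Of 17 tested, 9 rose in HF, 7 fell and 1 missed the threshold (52.9% higher and 41.2% lower, against 26.2% and 28.7% of all genes). The counts were 7 higher and 8 lower with equal totals and 6 and 8 after quantile normalization. On the deposited scale the list had sums of 70417 to 97479 in HF and 35971 to 45980 in the LF-labelled libraries. The median of 0.42 became -0.10 when totals were made equal and -0.00172 after quantile normalization. Irf1 and Ciita are among the genes of this list that also stand in another of the lists used here. The part of the interferon response in the Psmb9, Psmb8 and Psmb10 differences was not tested. Of the remaining marker lists, 2 of 6 tested alveolar macrophage markers were higher and 1 lower (33.3% and 16.7%, against 26.2% and 28.7% of all genes). All 4 tested platelet markers were higher (100% against 26.2%). Among 6 T cell, 5 NK cell and 4 B cell markers tested, 0 were called in either direction, against 55.0% of all genes. With equal totals 2 NK cell markers were lower, and after quantile normalization 1 T cell and 1 B cell marker were higher. The NK cell markers had a median of -2.04 with a median log2 SD of 3.13 in HF, so 0 calls there does not show equal levels.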

How the data were processed

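One deposited table of 35641 genes gave the RNA sequencing values of 7 libraries (4 HF, 3 LF). Per the labels' protocols, TRIzol LS was used for RNA and a SMART-Seq kit for libraries. The tools in the submitters' processing notes are STAR 2.6.1b, featureCounts 1.6.3 and DESeq2 1.20.0. Genome build, annotation and strand setting are not given in the sources used. The library columns hold normalized counts as the authors deposited them, a signal with no negative values. Every value was a whole multiple of 1 read (100%, within 0.01), so reads were recovered, and edgeR called 7624 genes on them. The authors' deposited log2 fold changes, test statistics (a score) and p-values were used only in the sentence that names the authors' deposited table. HF columns match the labels by number. The LF columns, numbered 6 to 8, were taken as LF libraries without a replicate number, and 0 columns were left unmapped. Reads were amplified and carry no molecular identifiers, so depth bounds counting error only. The p-values reflect only the spread among these libraries.

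Genes with a mean of at least 10 were tested on log2(value + 1) with limma 3.58.1 (trend) in R 4.3.3, Benjamini-Hochberg adjustment over all tested genes and a threshold of 0.05. The pseudocount shrinks changes of low genes. Ratios were tested by exact permutation over libraries. Alternatives were pseudocounts of 0.5 and 5, no filter, a mean of at least 50, equal totals, quantile normalization, edgeR 4.0.16, DESeq2 1.42.0, and each library left out. Fits were tested on simulated data. Lengths came from GENCODE M21, and promoters and neighbours from RefSeq GRCm38.p6.

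The subunits and lists were chosen with earlier results of these data known. Values in every library are given for Psmb5 to Psmb10 and Psme1 to Psme4, for up to 4 subunits with the largest difference in each direction, the highest mean, those that did not pass and the 2 with the largest spread in HF. From each pathway list the 2 genes with the lowest p in each direction and the 1 with the highest mean are named. Others are marked as picked after their values were seen. A few genes picked by this rule are left unreported.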

Additional observations from a re-analysis of the deposited data

Results flagged for a closer look

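The thymus-specific subunit Psmb11 was at 3.46 normalized counts in HF1, which is 3 reads, and at 0 in the other HF libraries, so HF1 stood apart from the rest of its group. It was the 1 such case among 62 groups looked at, and it lies at the level of 3 reads. The rule sets the gap to the next value against the range of the group. With every other HF library at 0, any nonzero value is flagged. The rate of about 1 in 20 that chance gives for this rule thus does not apply here.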

How the results depend on the processing

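The 32 subunits lower in HF came to 29 to 39 over the other settings and to 28 to 33 with each library left out. The count of 2 higher was 3 in DESeq2, 1 with no filter and in both edgeR fits, 0 with equal library totals (Psmb9 0.21, limma adjusted p = 0.0885), and 1 to 2 with each library left out (1 without HF2, HF4, LF6, LF7 or LF8). Calls over all genes came to 6432 to 8470 with each library left out, and higher pathway genes to 11 after quantile normalization and to 15 to 18 with each library left out. Quantile normalization turned the Psmb8/Psmb5 ratio to -0.46. With each library left out the Psmb9/Psmb6 ratio was 2.005 to 2.16 and the Psmb10/Psmb7 ratio -1.88 to -1.54, where 6 libraries allow no exact p under 0.0667. Of the named subunits and pathway genes, B2m (-0.64), Tap1 (-0.31), H2-D1 (-0.20), Zfand5 (-0.0603) and Nfe2l2 (-0.0358) turned after quantile normalization. With equal totals B2m (-0.15), Tap1 (-0.21), Psme2b (-0.40), Psmd4 (-0.22) and Psmd10 (-0.13) turned. Psmd13 turned in DESeq2 (0.00339) and without HF3 (0.0143, with -0.0347 as the lowest value with 1 library left out). Of the other single-gene values, 584 kept direction and side of the threshold, 22 lost and 14 gained the call. The cause of these changes was not tested. No paired analysis was possible because the LF columns, numbered 6 to 8, carry none of the labels' replicate numbers. Depth limits Psma8 and Psmb11, with 5 and 3 reads in HF.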
